A study of Mus musculus with 6 samples.

Results

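Ankrd1, Lmod2, Nkx2-5, Fhl2, Tecrl and Smyd1 are genes best known from heart muscle that were also measured in the embryonic tongue. They are 6 of the 18193 genes that the arrays read with a probe set of a single gene name, and 12 probe sets read them. The 6 genes were chosen by their measured difference between the mutant and control arrays described here, on which all of them were lower in the mutants. That difference is therefore given as a description, without a test.

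The mutant tongues came from embryos with the genotype Tgfbr2 fl/fl; Wnt1-Cre, and the control tongues from Tgfbr2 fl/fl embryos without Cre, which the titles call wildtype. Both groups were of strain C57BL/6J at embryonic day 14.5, carried the floxed alleles and had 3 Affymetrix arrays each. Wnt1-Cre recombines in the neural crest and its descendants, which form most of the connective tissue of the tongue, whereas its skeletal muscle fibres come from mesoderm. The labels call the tissue tongue and tongue mesenchyme, leave the sex undetermined and do not say whether embryos were pooled or came from separate litters, so each p-value reflects only how these 6 arrays spread, which may be technical.

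Heart and skeletal muscle are both striated and share most of the machinery of contraction, and early skeletal muscle transiently uses many genes that later mark the heart. Ankrd1 encodes a stretch-responsive ankyrin repeat protein that binds titin and moves between sarcomere and nucleus, and it is also widely used as a readout of the YAP and TEAD transcription factors. Lmod2, the cardiac leiomodin, adds actin at the pointed ends of thin filaments. Nkx2-5 is a homeobox transcription factor required for heart formation, with known expression in embryonic tongue muscle. Fhl2 encodes a LIM-domain scaffold that binds titin and nuclear partners, Tecrl an endoplasmic reticulum protein whose human mutations cause a calcium-related arrhythmia, and Smyd1 a methyltransferase that takes part in myosin folding and myofibril assembly.

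Values are log2 expression, on which a difference of 1 is a 2-fold difference, and levels are compared only within a probe set. Tgfbr2 itself had 11.16, 11.79 and 11.69 in mutant arrays 1, 2 and 3, against 11.55, 11.82 and 11.80 in control arrays 1, 2 and 3, a difference of -0.18 (limma adjusted p = 0.642). No source used here places its probes relative to the deleted part, so these values do not check the genotype labels. Mutant array 1 had the lowest quality weight by limma's array weights, 0.155, against 0.945 and 0.979 in the other mutant arrays and 0.838 to 3.343 in the controls, and the 6 genes are also given without it. Skeletal muscle markers were bright in both groups: Myog had 12.32 to 12.61 in the mutants and 12.64 to 12.69 in the controls. Of the 8 measured markers of heart muscle cells, 5 were dim in both groups and 3 were not. Nppa, the atrial natriuretic peptide gene, had 3.62 to 3.98 in the mutants and 3.54 to 3.73 in the controls, and Tnni3, the cardiac troponin I gene, had 4.57 to 4.89 in the mutants and 4.77 to 5.14 in the controls. These genes, with Myl7, Ryr2 and Irx4, averaged under the level of 5.17 below which genes were not tested. The differences of these 5 were 0.14 for Nppa, 0.16 for Irx4, -0.01 for Myl7, -0.12 for Ryr2 and -0.17 for Tnni3. The other 3, Myl2, Myh6 and Nppb, lay above it in all controls and were all negative (median -0.83), and 1 of them, Myh6, passed the test. The mutant values of Myh6 (5.20 to 5.61) and Nppb (5.06 to 5.32) lay close to that level. A filter on the mean level keeps such genes largely through their controls, so this median is no measure of the 8 markers. The mean log2 level of the 8 markers was 5.05 to 5.10 in the mutants and 5.28 to 5.5 in the controls, and its part in the lower values of the 6 genes was not tested.

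The promoters of the 6 genes are shown where letters bear on genes that were lower together. The windows run from 250 bases before to 50 after an annotated start (RefSeq, GRCm38.p6), and all 6 genes matched, Fhl2 with a pair of starts, which gives 7 windows. Capitals mark the muscle CAT element bound by TEAD factors (MCAT, letters CATTCC), the CArG box of serum response factor and the MEF2 site, each searched on both strands, so that the MCAT letters of Ankrd1 stand in its window as the complement GGAATG. Ankrd1 is shown because it has the MCAT element at 2 places, at positions -210 and -123 from its start, in chr19:36119795-36120094 on the minus strand. Fhl2 is shown because each of its windows has a CArG box, at -96 in chr1:43196712-43197011 and at -31 in chr1:43163912-43164211, both on the minus strand. Tecrl is shown for a MEF2 site just after its start and for the letters AGATAA, read by GATA factors, at 3 places in chr5:83355146-83355445 on the minus strand.
Ankrd1: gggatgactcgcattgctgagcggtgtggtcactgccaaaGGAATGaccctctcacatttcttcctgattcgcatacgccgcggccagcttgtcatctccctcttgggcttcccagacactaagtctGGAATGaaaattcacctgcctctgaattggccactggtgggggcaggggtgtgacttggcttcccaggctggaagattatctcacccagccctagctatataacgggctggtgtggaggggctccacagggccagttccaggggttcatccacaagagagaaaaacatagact
Fhl2, upstream start: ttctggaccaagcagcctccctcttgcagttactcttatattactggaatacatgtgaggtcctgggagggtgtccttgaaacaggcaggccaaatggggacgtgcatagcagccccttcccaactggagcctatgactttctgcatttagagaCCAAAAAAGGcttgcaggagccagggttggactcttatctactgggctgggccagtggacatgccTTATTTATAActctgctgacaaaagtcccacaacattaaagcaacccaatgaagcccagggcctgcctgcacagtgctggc
Fhl2, downstream start: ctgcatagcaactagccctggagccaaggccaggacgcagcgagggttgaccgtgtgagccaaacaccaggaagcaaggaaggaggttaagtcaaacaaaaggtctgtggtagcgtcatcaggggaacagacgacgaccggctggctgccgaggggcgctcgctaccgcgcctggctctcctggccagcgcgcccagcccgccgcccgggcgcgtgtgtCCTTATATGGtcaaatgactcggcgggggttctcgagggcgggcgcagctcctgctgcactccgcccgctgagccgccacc
Tecrl: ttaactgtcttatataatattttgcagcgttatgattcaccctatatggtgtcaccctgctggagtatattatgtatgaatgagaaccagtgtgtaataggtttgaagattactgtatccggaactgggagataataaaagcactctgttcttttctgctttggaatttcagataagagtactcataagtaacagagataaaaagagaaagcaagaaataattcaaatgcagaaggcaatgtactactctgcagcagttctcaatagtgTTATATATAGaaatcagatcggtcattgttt

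Among 32534 such windows of mouse genes, 1.64% held a CArG box, 3.16% a MEF2 site and 14.6% an MCAT element, with 2 or more MCAT elements in 1.36%. Of the 7 windows here, 2 held a CArG box (both of Fhl2), 2 a MEF2 site (the upstream start of Fhl2, and Tecrl) and 1 an MCAT element (Ankrd1). The windows of Lmod2, Nkx2-5 and Smyd1 held none of these letters. Smyd1 alone held the letters TNAAGTG of NK2 homeobox factors, as did 11.5% of all windows. The GATA letters stood in 3 of the 7 windows (Ankrd1, the upstream start of Fhl2, and Tecrl) and in 11.2% of all windows, with 2 or more in 1.12%. The short SMAD element CAGAC stood in 5 of the 7 windows and in 49.5% of all windows, and the E-box CANNTG of the myogenic factors in 6 of 7 and in 72.3%. These matches describe the letters in the windows and were not tested against the expression values.

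Ankrd1 had the lowest difference of the 6 genes. Its brightest probe set had 7.30, 7.84 and 7.35 in mutant arrays 1, 2 and 3, against 9.34, 10.25 and 9.90 in control arrays 1, 2 and 3. The groups were separated by 1.5 between the highest mutant and the lowest control. The means were 7.5 ± 0.30 in the mutants and 9.83 ± 0.46 in the controls (SD, n = 3 each), a log2 difference of -2.33 (standard error 0.25), or a level 5.04 times higher in the controls. The other Ankrd1 probe set gave -2.42, so both read the gene alike.

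Lmod2 came next and varied most within the groups. The mutants had 5.94, 6.70 and 7.28 in arrays 1, 2 and 3, against 8.11, 8.86 and 9.0 in the controls. All mutants were below all controls, by at least 0.83. The means were 6.64 ± 0.67 in the mutants and 8.66 ± 0.48 in the controls (SD, n = 3 each), which is a difference of -2.02 (standard error 0.36). Without mutant array 1 the difference was -1.67, and without mutant array 3 it was -2.34.

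**Figure D1:**
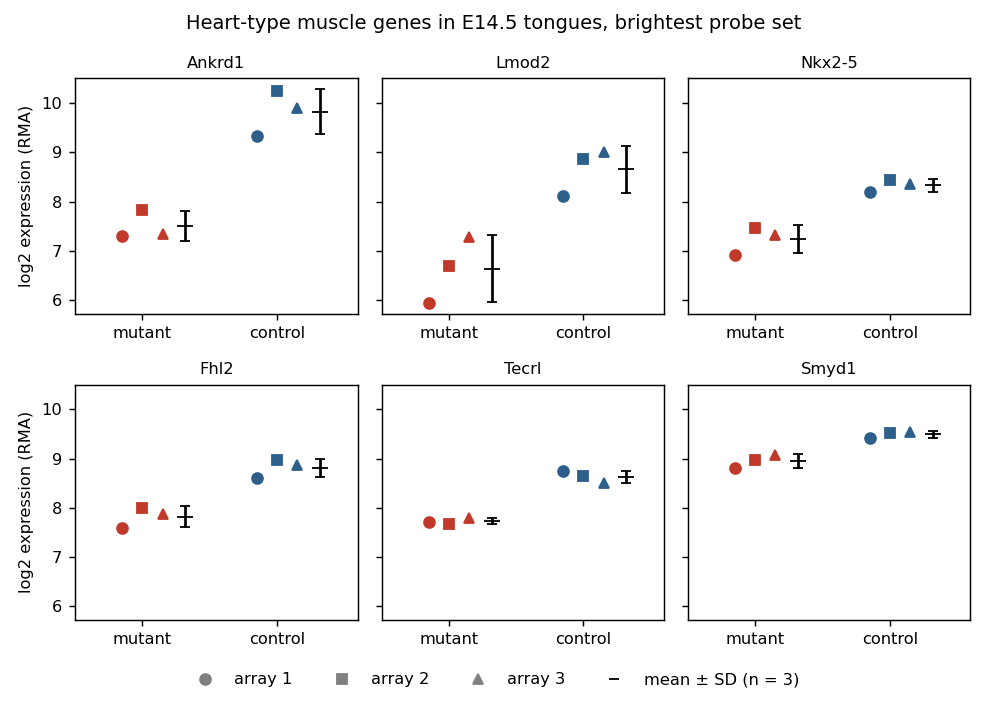
Log2 expression of the 6 heart-type genes in each array (brightest probe set per gene), mutants on the left and controls on the right of each panel, with the symbol shape giving the array and the mean ± SD (n = 3) as the bar. In every panel the 3 mutant values lie below the 3 control values, with the widest gap for Ankrd1 (1.5) and the narrowest for Smyd1 (0.34).

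Nkx2-5 and Fhl2 had nearly the same profile over the arrays. Nkx2-5 had 6.92, 7.46 and 7.32 in mutant arrays 1, 2 and 3, against 8.19, 8.44 and 8.35 in control arrays 1, 2 and 3. Fhl2 had 7.59, 7.99 and 7.88 in the same mutant arrays and 8.6, 8.97 and 8.86 in the same control arrays. In both genes array 1 was the lowest and array 2 the highest of its group. The differences were -1.09 for Nkx2-5 (standard error 0.15) and -0.99 for Fhl2 (standard error 0.14), close to 2-fold. The mutants of Nkx2-5 spread more (SD 0.28) than its controls (SD 0.13).

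Tecrl varied least among the mutants of the 6 genes, while Smyd1 varied least among the controls. Tecrl had 7.71, 7.68 and 7.79 in mutant arrays 1, 2 and 3, against 8.75, 8.64 and 8.50 in control arrays 1, 2 and 3. The mutant SD was 0.05 and the control SD 0.13 (n = 3 each), with a difference of -0.90 (standard error 0.10). Unlike the other 5 genes, Tecrl was not lowest in array 1 of either group: array 1 was the lowest mutant for 5 of the 6 genes and the lowest control for 5 of the 6.

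Smyd1 had the smallest difference, and its probe sets disagreed. The brightest, whose name carries a suffix for probes shared with similar transcripts, had 8.80, 8.98 and 9.07 in mutant arrays 1, 2 and 3, against 9.41, 9.52 and 9.55 in control arrays 1, 2 and 3, a difference of -0.55 (standard error 0.10). The second brightest gave -0.34 and the third gave -0.19, with gaps of only 0.02 and 0.05 between the groups. Another above the filter level gave -0.08 with overlapping groups, and 2 dim ones gave 0.07 and 0.02. The mean over the 6 probe sets was -0.18, so the size of the Smyd1 difference depends on the probe set read.

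**Figure D2:**
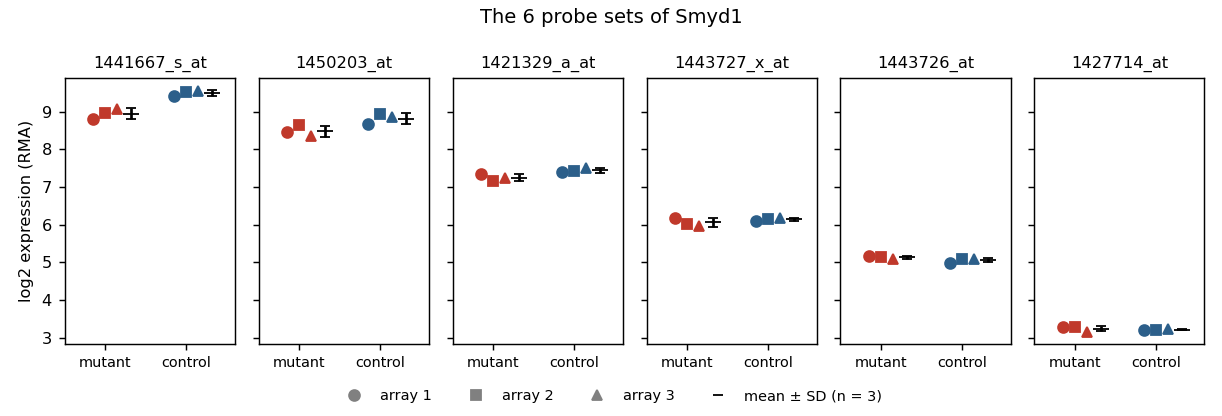
Log2 expression of the 6 Smyd1 probe sets per array, brightest on the left, with mutants left of controls in each panel and the mean ± SD (n = 3) beside the points. Only the 3 brightest have every mutant value below every control value, with log2 differences of -0.55, -0.34 and -0.19.

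All 6 genes thus had 3 mutant values below 3 control values, as had 11.5% of the 13645 tested genes. All 6 also passed the limma threshold in the fit over all genes, in which 0.821% of genes passed as lower, 1.32% as higher and 2.14% in either direction (adjusted p under 0.05). The genes were picked from this same contrast, so neither count is a result about them. Only 4 tested genes had a lower difference than Ankrd1 and 13 a lower one than Lmod2, against 391 for Smyd1. A lower value in whole tongues cannot tell fewer cells that express a gene from less RNA per cell. Which cells of the tongue express the 6 genes was not tested.

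The skeletal muscle genes of the same arrays give a scale for these values. Of 28 genes for muscle fate, contraction and innervation, 25 were negative, with a median of -0.58 against 0.02 over all tested genes, and 1 passed the test, with 17 lower and 1 higher at an unadjusted p under 0.05. At that unadjusted threshold 7.46% of all tested genes were lower and 9.43% higher. Actn3, the fast-fibre alpha-actinin gene, fell by 1.68 (limma adjusted p = 0.0105), with 7.43, 7.69 and 8.0 in mutant arrays 1, 2 and 3, against 9.02, 9.61 and 9.54 in control arrays 1, 2 and 3. The next lowest were Casq1, the calcium store gene, at -1.53, Myh8, perinatal myosin, at -1.04, Ryr1, the calcium release channel, at -0.87, and Myf6, a myogenic transcription factor, at -0.83, none with a call. Among the muscle genes named whatever their result, Acta1, skeletal actin, gave -0.67 (limma adjusted p = 0.202), Myod1 gave -0.42 and Myog gave -0.19. With the replicate number as a block, an alternative whose pairing the labels do not give, 7 passed, all lower: Actn3, Casq1, Acta1, Myh8, Myl1, Tnnt3 and Tnnc2. In that fit 490 of all 13645 tested genes passed, 207 lower and 283 higher. Without control array 1 the count was 5 and without mutant array 1 it was 2, whereas it was 0 without mutant array 2, control array 2 or control array 3. Without mutant array 1 the list median was -0.34.

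Set against that muscle scale, the 6 genes fell into different positions. The per-array median of the skeletal muscle list, taken relative to each gene's own control mean, was -0.94, -0.41 and -0.32 in mutant arrays 1, 2 and 3, against -0.21, 0.12 and 0.10 in control arrays 1, 2 and 3. After subtracting it in each array, the mutant minus control differences were -1.77 for Ankrd1, -1.46 for Lmod2, -0.53 for Nkx2-5, -0.43 for Fhl2, -0.34 for Tecrl and 0.02 for Smyd1. The Smyd1 value rested on mutant array 1, with 0.24, -0.11 and -0.10 in mutant arrays 1, 2 and 3, and was -0.10 without that array, an alternative chosen after seeing the data. Without it Tecrl gave -0.52, Fhl2 -0.51, Nkx2-5 -0.57, Lmod2 -1.30 and Ankrd1 -1.87. None of the 28 skeletal muscle genes had a lower difference than Ankrd1 or Lmod2, 2 had a lower one than Nkx2-5, and 15 had a lower one than Smyd1. In mutant array 1, where the muscle median was lowest, Tecrl stood 0.03 above it, against -0.53 and -0.52 in mutant arrays 2 and 3. These positions are a description, since the 6 genes were selected on being low.

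**Figure D3:**
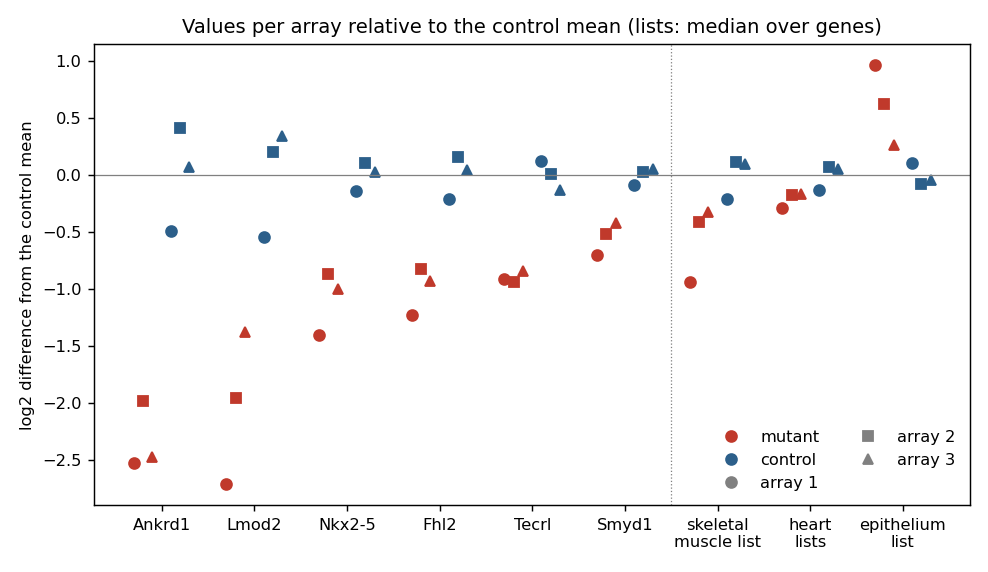
Log2 difference of each array from the control mean, for the 6 genes (left of the dotted line) and for the medians of the skeletal muscle list, the heart lists and the epithelium list (right of it), with mutants in red left of controls in blue. Ankrd1 and Lmod2 lie far under the muscle medians (-0.94 to -0.32 in the mutants), Smyd1 lies near them, and the epithelium median is above the control mean in all 3 mutants.

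Other heart genes were mostly negative, with calls in both directions. Of 61 heart genes outside the set, 58 had a probe set and 47 were tested. Of these 35 were negative, with a median of -0.27, against 6357 of all 13645 tested genes. By limma 2 passed as lower and 2 as higher, against 0.821% and 1.32% of all tested genes. At an unadjusted p under 0.05, 19 were lower and 5 higher, against 7.46% and 9.43% of all tested genes. Myh6, the alpha myosin heavy chain of heart muscle, fell by 1.26 (limma adjusted p = 0.00792), with 5.20, 5.37 and 5.61 in mutant arrays 1, 2 and 3, against 6.54, 6.79 and 6.64 in control arrays 1, 2 and 3. Its mutant values lay close to the filter level of 5.17, so the size of its fall is uncertain. Gja5, encoding connexin 40 of the conduction system and of arterial endothelium, fell by 0.80 (limma adjusted p = 0.025). Its mutant mean of 5.10 lay under the filter level, where RMA compresses differences. It passed the filter only through its controls (6.13, 5.78 and 5.79 in arrays 1, 2 and 3), so its fall is uncertain in size. Gata6, encoding a transcription factor of heart and endoderm, rose by 1.23 (limma adjusted p = 0.0181), with 7.04, 7.04 and 7.65 in mutant arrays 1, 2 and 3, against 6.05, 6.02 and 5.98 in control arrays 1, 2 and 3. Mb, encoding myoglobin, rose by 0.94 (limma adjusted p = 0.0154). All 4 calls were lost when control array 2 or control array 3 was left out, those of Gata6, Gja5 and Mb also when control array 1 was, and those of Gja5 and Mb when mutant array 2 was. With the replicate block the count was 10, of which 7 were lower, where 490 of all 13645 tested genes passed, 207 of them lower.

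By role, the calcium handling and conduction genes were the most uniform of the heart lists. All 11 tested ones were negative (median -0.50), as were 6357 of all 13645 tested genes. At an unadjusted p under 0.05, 7 were lower, against 7.46% of all tested genes. Gja5 was the only call, against 0.821% of all tested genes called lower, and it passed the filter only through its controls. Trdn, triadin of the calcium release complex, gave -1.13 (limma adjusted p = 0.079, or 0.0429 with the replicate block), and Srl, Atp2a2 and Casq2 gave -0.55, -0.55 and -0.54. The 17 contractile genes had a median of -0.26, with Ldb3, a Z-disc gene, at -1.13, Xirp1 at -0.86, the ventricular light chain gene Myl2 at -0.83 and Nebl, encoding the cardiac nebulin relative nebulette, at 0.92. Of these Ldb3, Xirp1 and Nebl passed with the block (adjusted p = 0.0119, 0.0386 and 0.0145), as did Csrp3, muscle LIM protein (-0.67, adjusted p = 0.0383). Among 7 genes of peptides and metabolism, Fabp3, the heart fatty acid binding protein gene, gave -0.65 (limma adjusted p = 0.0521, or 0.0289 with the block), Nppb -0.56, Cox8b -0.51 and Corin -0.40. The 12 heart transcription factor genes had a median of -0.05, with Myocd at -0.62, Hey2 at 0.48, Mef2c at -0.45 and Hopx at 0.34, none of them called.

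Close relatives of the 6 genes were spread around 0. Of 25 relatives, 24 had a probe set and 21 were tested, with 13 negative, a median of -0.06 and 0 calls by limma (2 lower and 1 higher at an unadjusted p under 0.05, against 7.46% and 9.43% of all tested genes). The largest were Nkx2-3, an NK2 homeobox gene of pharyngeal and gut tissue, at 0.56 (limma adjusted p = 0.155), Fhl1, the skeletal muscle LIM protein gene, at -0.48, and Tmod1 and Lmod3, further genes of the pointed-end family, both at -0.43. Lmod3, the skeletal muscle leiomodin, had 8.99, 9.82 and 9.62 in mutant arrays 1, 2 and 3, against 9.84, 10.03 and 9.85 in control arrays 1, 2 and 3. Mutant array 2 thus nearly reached the lowest control of Lmod3. The muscle ankyrin relatives Ankrd2 and Ankrd23, named here after their values were seen, gave -0.34 and 0.10, and the relatives Smyd2, Smyd3, Smyd4 and Smyd5 gave -0.10, 0.23, 0.03 and -0.11. Tecr, the enoyl-CoA reductase that Tecrl resembles, gave 0.17. The difference between a heart-type gene and its relative was not tested, since the heart-type gene was chosen for its size.

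Partners and regulators of the 6 genes were mostly negative without passing. Of 21 such genes 20 were negative, with a median of -0.35, against 6357 of all 13645 tested genes. They had 0 calls by limma and 8 lower at an unadjusted p under 0.05, against 7.46% of all tested genes. The skeletal muscle list had a median of -0.58, so this direction was not particular to the partners. Ttn, encoding titin, to which Ankrd1 and Fhl2 proteins bind, had 10.98, 11.61 and 12.55 in mutant arrays 1, 2 and 3, against 11.97, 12.92 and 12.95 in control arrays 1, 2 and 3, so the groups overlapped. Its difference was -0.90 (limma adjusted p = 0.333, or 0.0463 with the replicate block). Neb, encoding nebulin, gave -0.86, Klhl40, encoding a stabiliser of nebulin and of Lmod3, gave -0.79 and Des, encoding desmin, gave -0.69. With the block 3 passed, all lower: Ttn, Klhl40 and Des (adjusted p = 0.0463, 0.0324 and 0.0438). In that fit 207 of all 13645 tested genes passed as lower and 283 as higher. Of the YAP and TEAD side of Ankrd1 control, named here after their values were seen, the target genes Ccn1 and Ccn2 gave -0.28 and -0.39 and the regulators Yap1, Wwtr1 and Tead1 gave -0.04, -0.14 and -0.35, none of them called.

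**Figure D4:**
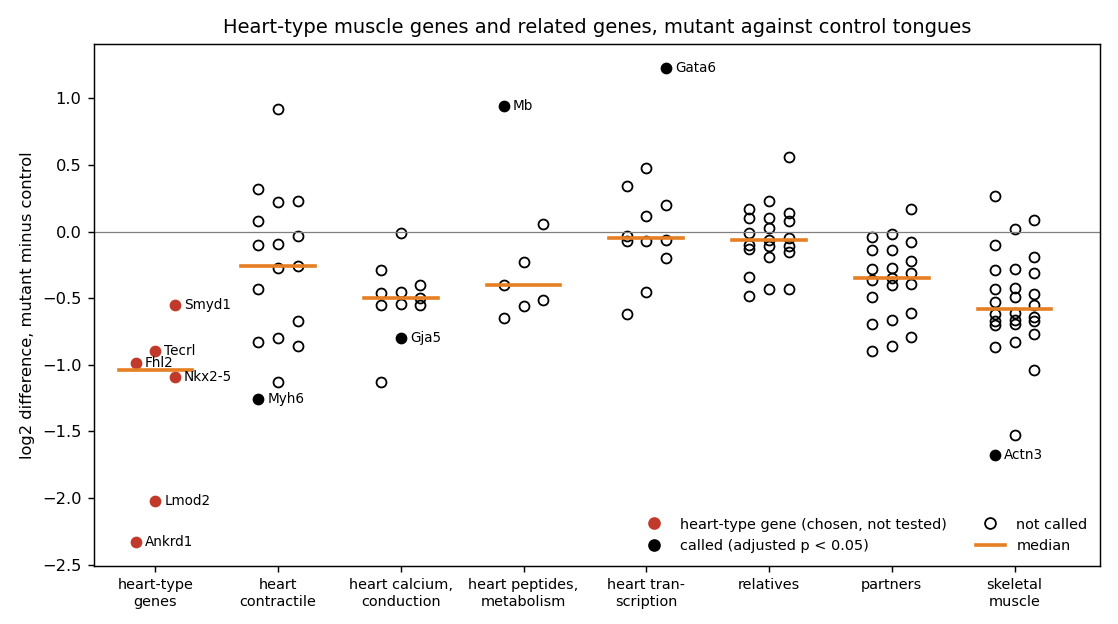
Mutant minus control log2 difference of the 6 chosen genes (red, not tested) and of each tested gene in 7 lists, filled black where the limma call passed at an adjusted p under 0.05, with the list median as an orange line. The calls outside the set are Myh6, Gja5 and Actn3 below 0 and Mb and Gata6 above 0, and no relative or partner is called.

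Genes with the most similar profiles were found by the root mean square difference of the 6 values, each taken relative to the gene's own control mean, over the 13645 tested genes. Closest to Ankrd1 were Angptl1, a secreted angiopoietin-like gene (0.29), Dbx1, a homeobox gene (0.30), and the collagen gene Col19a1 (0.37). For Lmod2 they were Atp1b4, a muscle gene of the inner nuclear membrane (0.10), the tenascin gene Tnc (0.21) and the integrin gene Itga4 (0.28). Atp1b4 had the same order of arrays as Lmod2 in the mutants, with 8.32, 9.08 and 9.68 in arrays 1, 2 and 3, against 10.55, 11.48 and 11.41 in controls 1, 2 and 3. Fhl2 was among the 3 nearest to Nkx2-5 and Nkx2-5 among the 3 nearest to Fhl2 (0.089 log2 units), with the prostacyclin receptor gene Ptgir near both. The mutant values of Ptgir, 4.73 to 5.04, all lay under the filter level, which it passed through its controls at 5.71 to 5.99, so its likeness rests on values near background. The others were Cited1 for Nkx2-5 and A330076H08Rik for Fhl2. A330076H08Rik also lay near the filter level in the mutants (4.96, 5.27 and 5.31), against 5.86, 6.28 and 6.18 in the controls. Tecrl was nearest to Fli1, an ETS factor gene of endothelium (0.039), to Tmem132c (0.083) and to Gja5 (0.104). The mutant values of Gja5 (5.03, 5.06 and 5.20) also lay near the filter level, against 6.13, 5.78 and 5.79 in the controls. Smyd1 was nearest to Galnt4, Cad and Jcad, all within 0.052. The measure covers 6 arrays, so it is dominated by the contrast that chose the 6 genes.

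Epithelium and endothelium markers were shifted in opposite directions between the groups, without a call by limma. The endothelium shift lay mostly in mutant array 1. All 8 epithelium markers were positive (median 0.59), 7 of them with every mutant above every control, as in 13.6% of all tested genes. None passed by limma (0 calls), with 6 higher at an unadjusted p under 0.05, as were 9.43% of all tested genes. Their mean log2 level was 10.93 to 11.67 in the mutants and 10.57 to 10.75 in the controls, highest in mutant array 1. All 6 endothelium markers were negative (median -0.44), as were 6357 of all 13645 tested genes. They had 0 calls by limma and 1 lower at an unadjusted p under 0.05, against 7.46% of all tested genes. Mutant array 1 again lay apart, with a mean level of 6.59. The other mutants had 7.35 and 7.36 and the controls 7.5 to 7.59. No marker of these lists was at 0. The mean level of the 28 skeletal muscle genes was 9.82, 10.30 and 10.47 in mutant arrays 1, 2 and 3, against 10.51, 10.88 and 10.87 in control arrays 1, 2 and 3. The part that tissue make-up has in the lower values of the 6 genes was not tested. Without mutant array 1 the differences of Ankrd1, Lmod2, Nkx2-5, Fhl2, Tecrl and Smyd1 were -2.23, -1.67, -0.94, -0.88, -0.89 and -0.47. In the other mutant arrays, 2 and 3, the epithelium median was 0.62 and 0.27 above the control mean. Relative to the control mean, the endothelium median was only -0.14 and -0.15 in mutant arrays 2 and 3.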

How the data were processed

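Total RNA of embryonic tongues was hybridised to 6 Affymetrix arrays as biotin-labelled cRNA, per the labels. The deposited log2 values were made by the authors with RMA (background correction, quantile normalization and probe set summary), per the submitters' processing notes, with no version. Arrays have no read depth: their number limits the precision. Of 45101 probe sets, 34945 have 1 gene symbol in the platform annotation, 932 several and 9160 none listed, and 64 are control probe sets. The brightest probe set over all arrays stood for a gene, and the lowest 25% of 18193 genes (under 5.17) were not tested.

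Groups came from the titles. The 3 mutant arrays were set against the 3 controls by limma (version 3.58.1, R 4.3.3; 2-sided, Benjamini-Hochberg over 13645 genes, threshold 0.05), tested on simulated data. The main fit had no block. An alternative fit used the replicate number as a block, because the deviations of same-numbered arrays correlated at 0.309, 0.105 and 0.206, all over 0.1. The unlike-numbered arrays 2 and 3 also reached 0.147 and 0.196, and mutant array 2 correlated more with control array 3 (0.196) than with control array 2 (0.105). The labels do not say what a number stands for, so a pairing is not established. Values with the block describe that alternative only. The heart-type genes, the lists (heart, relatives, partners, skeletal muscle, tissue markers) and the naming rule were chosen with earlier results of these data known. The rule names called genes and up to 4 more of each list by size. Of the listed genes 5 entries had no probe set with a single name and were not analysed here. Promoter sequences are from RefSeq (GRCm38.p6). Figures were drawn with matplotlib 3.10.9.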

Additional observations from a re-analysis of the deposited data

How the results depend on the processing

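The log2 differences of Ankrd1, Lmod2, Nkx2-5, Fhl2, Tecrl and Smyd1 stayed negative under every alternative run and moved by less than 1 replicate SD, except for Smyd1, which gave -0.18 as the mean of its probe sets. This stability was largely fixed in advance and is no check of the differences. The genes were chosen as lower and had every mutant value below every control value, so leaving out an array could not reverse a sign. The filter, replicate block and trend settings left the differences unchanged. Counts moved more. Over all genes 292 were called, against 151 with the lowest 50% left out, 1034 with array quality weights, 490 with the replicate block, 135 with sex (read from Xist) as a covariate and 16 to 670 with an array left out. The 4 called heart genes became 1 with the lowest 50% left out, where Myh6, Gja5 and Gata6 were no longer tested, 15 with weights, 10 with the replicate block and 0 to 6 with an array left out. Relatives and partners, with 0 calls, had 5 with weights, 3 with the block and 0 to 1 with an array left out. The 1 skeletal muscle call became 12 with weights, 7 with the block and 0 to 5 with an array left out. The cause of the other changes was not tested. The median of the heart lists was -0.17 with no filter and -0.34 without mutant array 3, against -0.27. With no filter, mean probe sets, every probe set, median centring, a further quantile step, or trend and robust fitting, the counts stayed within 1.5 times. Dim probe sets lie close to background, where sizes are compressed.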

Other observations

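Lists of further tissues were described for the same arrays. All 6 macrophage markers were positive, with a median of 0.39, although Csf1r, at 0.02, was hardly changed. C1qa, a complement gene of tissue macrophages, rose by 1.05 (limma adjusted p = 0.0152). It had 9.10, 8.83 and 8.65 in mutant arrays 1, 2 and 3, against 7.91, 7.86 and 7.67 in control arrays 1, 2 and 3. Of 5 tested cartilage markers, Col9a1, a cartilage collagen gene, rose by 0.87 (limma adjusted p = 0.0283) while the other tested ones were negative, between -0.52 and -0.05, without a call. None of 5 tested smooth muscle markers passed by limma (0 calls, 2 lower at an unadjusted p under 0.05, median -0.33), and none of 8 mesenchyme markers did (0 calls, 0 at an unadjusted p under 0.05, median -0.20). Of all tested genes, 7.46% were lower and 9.43% higher at that unadjusted threshold. Over the same 13645 genes, 7288 were positive and 1.32% were called higher by limma.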
